A study of Mus musculus with 18 samples.

Results

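The genes described here make long-chain fatty acids and place the bonds that make them unsaturated. They were taken as a list of 10 mouse genes, namely the stearoyl-CoA desaturases Scd1 and Scd2, the fatty acid desaturases Fads1 and Fads2, the elongases Elovl1, Elovl5 and Elovl6, and the cytosolic synthesis enzymes Acly, Acaca and Fasn, out of 19057 genes that the platform annotation names. Every probe carrying one of these symbols was used, which gave 16 probes. Of these, 13 passed the filter on dim signals (a detection p-value under 0.01 on at least 3 arrays), and they measured 8 of the 10 genes. Fasn and Acaca did not pass. The members were chosen by function with their normalized signals in these 6 groups already known, so their levels and differences are given as a description, without p-values.

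RNA from 6 kinds of mouse sample was hybridised to Illumina BeadChips, with 3 biological replicates of each and 18 arrays in all. The groups were whole brain, dendritic cells, B cells, Th1 cells, Th2 cells and naive CD4 T cells. All mice were labelled C57/BL6; the sample descriptions call the immune cells wild type, and the immune samples were male and female together while the brain samples were male. Th1 and Th2 cells are helper T cell subsets that arise from naive CD4 T cells after activation. The sources used here do not give age, organ of origin, cell purification or the culture of the helper cells.

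Fatty acid synthesis starts in the cytosol, where ATP citrate lyase (Acly) splits citrate to acetyl-CoA, acetyl-CoA carboxylase (Acaca) makes malonyl-CoA, and fatty acid synthase (Fasn) builds the chain. Elongases lengthen that chain in the endoplasmic reticulum, and desaturases insert double bonds: the Scd enzymes make monounsaturated fatty acids, whereas Fads1 and Fads2 act on the way to polyunsaturated ones. Many of these genes are known targets of the sterol-responsive SREBP transcription factors, and the pathway supplies membrane lipid to dividing cells and to myelin.

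The arrays detected 20377 to 20497 probes in brain, 15204 to 16259 in dendritic cells, 15170 to 15848 in B cells, 12564 to 14726 on the Th1 arrays, 13435 to 14177 on the Th2 arrays and 14614 to 15161 on those of naive CD4 T cells. The median signal of undetected probes was 43.7 to 45.2 in dendritic cells and 45.8 to 51.4 in B cells, against 32.4 to 36.9 on all other arrays, and this background cannot be told apart from the groups. All measured markers of T cells, B cells, dendritic cells and brain cells were detected on the arrays labelled as such. Measured markers had passed the filter on dim signals, so a marker detected in no other group was bound to be detected in its own. Clec9a, Itgax and Xcr1 of dendritic cells and Syt1, Rbfox3 and Stmn2 of neurons were of this kind. Flt3 of the dendritic cell list and Snap25 of the neuron list had probes that did not pass. The T cell list is shared by Th1, Th2 and naive CD4 T cells, and it does not tell these apart. Some markers were not confined to their type. Batf3 and Zbtb46 of the dendritic cell list were detected on all Th1 arrays, and Batf3 on all Th2 arrays. Siglech of that list averaged 6.76 in brain, above its 6.21 in dendritic cells. It was also seen on every B cell and naive array. Thy1 and Bcl11b of the T cell list were detected on all brain arrays. That whole list of 6 passed detection in each B cell sample. Cnp of the oligodendrocyte list was detected on every array, averaging 9.59 in naive cells against 10.14 in brain. These are examples and not a full list. In the dendritic cell samples all 6 measured dendritic cell markers were detected, with a summed signal of 2070 to 2550, and so were all 6 granulocyte markers (37900 to 52400), all 4 measured B cell markers (1880 to 3810), 5 of 6 T cell markers (2180 to 3090) and both measured erythroid markers (1900 to 9430). Erythroid sums were 241 to 1860 in B cells and 81.9 to 235 in naive CD4 T cells. In such bulk samples, fewer cells of a type and less RNA per cell cannot be told apart. Levels below are normalized signals on the log2 scale, each probe is compared only with itself, and errors on levels are SDs with n = 3.

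Scd1, which turns saturated stearoyl-CoA and palmitoyl-CoA into monounsaturated products, spanned a wider range than any other measured member. Its level was 10.63, 10.52 and 10.37 in the 3 brain samples, 9.31, 8.65 and 8.53 in dendritic cells, 12.14, 11.92 and 11.81 in B cells, 8.08, 8.41 and 8.10 in Th1 cells, and 5.50, 5.92 and 6.18 in Th2 cells. In naive CD4 T cells it read 4.42, 4.62 and 4.45, and was detected on none of the 3 arrays. No 2 groups overlapped, and the order ran from B cells through brain, dendritic, Th1 and Th2 cells to naive CD4 T cells. The group means lay 7.46 log2 units apart at their extremes, where the median tested gene spanned 1.9.

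Scd2, a close relative of Scd1 and the main stearoyl-CoA desaturase of brain, had another order. It read 8.41, 8.71 and 8.94 in brain, 4.91, 5.71 and 5.73 in dendritic cells, 5.51, 5.82 and 6.0 in B cells, 7.04, 7.05 and 7.76 in Th1 cells, 5.97, 6.47 and 6.61 in Th2 cells, and 5.22, 5.22 and 5.09 in naive CD4 T cells. Brain stood above Th1 cells and Th1 above Th2 cells without overlap, while Th2, B, dendritic and naive cells each overlapped the next group in the order. It was detected on 15 of 18 arrays, missing on the first dendritic cell array and on 2 naive arrays.

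**Figure D1:**
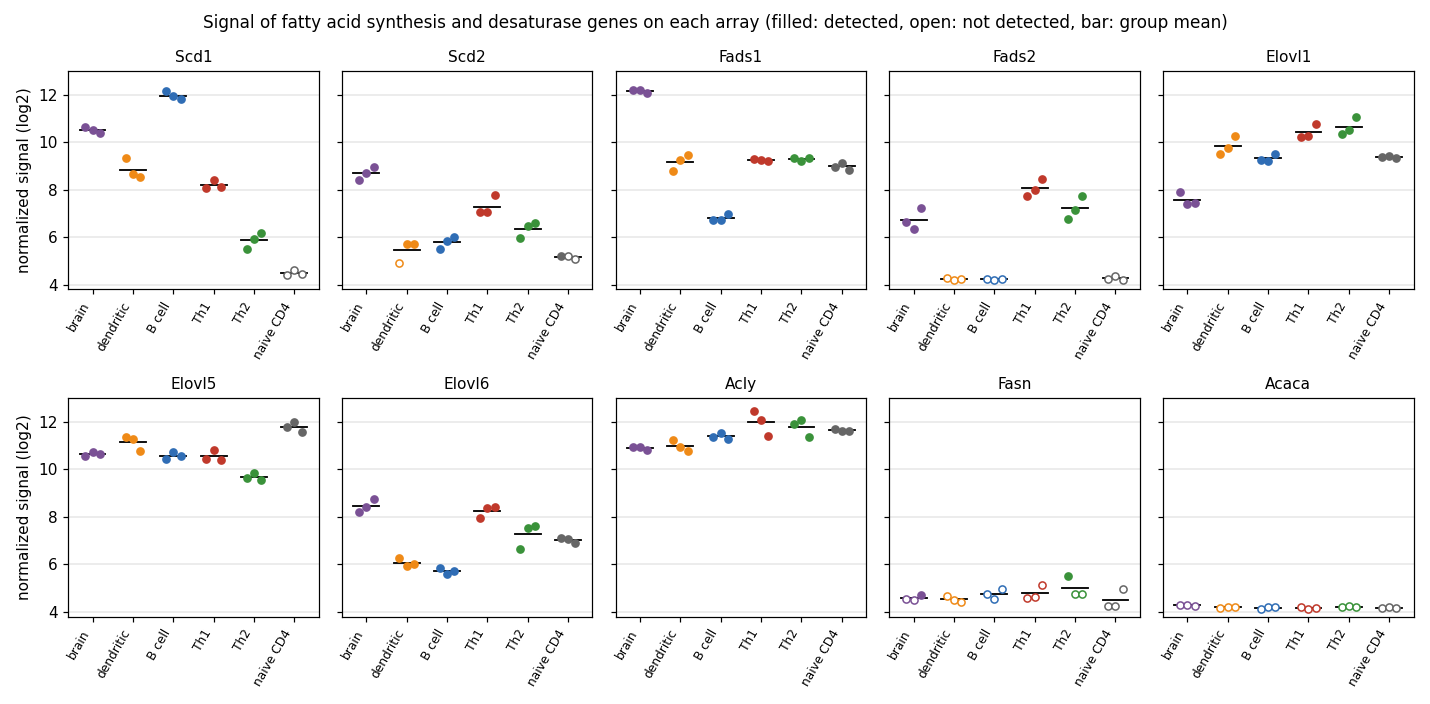
Normalized signal (log2, vertical axis) of each of the 10 genes on every array, with 3 points per group, open where the probe was not detected, and a bar at the group mean. Scd1 separates all 6 groups, Fads2 is detected in brain, Th1 and Th2 cells alone, and Fasn and Acaca lie at the bottom of the scale.

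Fads1, the desaturase that acts late in the synthesis of arachidonic acid, was highest in brain, at 12.17, 12.17 and 12.07. It read 8.77, 9.25 and 9.45 in dendritic cells, 6.72, 6.71 and 6.98 in B cells, 9.30, 9.23 and 9.19 in Th1 cells, 9.31, 9.19 and 9.35 in Th2 cells, and 8.97, 9.13 and 8.83 in naive CD4 T cells. Brain lay above and B cells below every other array, and the 4 groups between overlapped in turn. Its other probe was detected on 1 brain array alone.

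Fads2, which performs the earlier desaturation of the same route, was detected in 3 groups. The levels were 6.64, 6.36 and 7.22 in brain, 7.75, 7.97 and 8.44 in Th1 cells, and 6.78, 7.16 and 7.75 in Th2 cells. On all 9 dendritic, B and naive CD4 T cell arrays the probe was not detected, with levels of 4.20 to 4.38. Th1 overlapped Th2 cells and Th2 cells overlapped brain, whereas all 3 stood clear of the undetected groups.

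Among the elongases, Elovl1, which extends saturated and monounsaturated chains, was lowest in brain. Its levels were 7.89, 7.41 and 7.43 in brain, 9.51, 9.77 and 10.25 in dendritic cells, 9.26, 9.19 and 9.49 in B cells, 10.20, 10.27 and 10.76 in Th1 cells, 10.36, 10.50 and 11.04 in Th2 cells, and 9.38, 9.42 and 9.35 in naive CD4 T cells. Th1 cells overlapped both Th2 cells above them and dendritic cells below them. Elovl5, which extends polyunsaturated chains, was highest in naive CD4 T cells at 11.79, 12.01 and 11.58 and lowest in Th2 cells at 9.62, 9.83 and 9.53. It averaged 10.63 ± 0.08 in brain, 11.13 ± 0.30 in dendritic cells, 10.57 ± 0.15 in B cells and 10.55 ± 0.23 in Th1 cells, and brain, B and Th1 arrays overlapped.

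Elovl6, which takes the palmitate made by Fasn to stearate, was detected on all 18 arrays. It read 8.20, 8.40 and 8.77 in brain, 6.25, 5.95 and 6.0 in dendritic cells, 5.86, 5.60 and 5.72 in B cells, 7.95, 8.36 and 8.43 in Th1 cells, 6.66, 7.51 and 7.63 in Th2 cells, and 7.09, 7.05 and 6.92 in naive CD4 T cells. Brain and Th1 cells overlapped at the top of the order, and B cells lay below every other group.

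Acly varied least, with a span of 1.09 between group means. It averaged 10.90 ± 0.07 in brain, 10.97 ± 0.23 in dendritic cells, 11.39 ± 0.13 in B cells, 11.99 ± 0.54 in Th1 cells, 11.77 ± 0.39 in Th2 cells and 11.63 ± 0.04 in naive CD4 T cells. The Th1 values of 12.47, 12.09 and 11.40 and the Th2 values of 11.89, 12.09 and 11.34 spread on both sides of the naive arrays. Fasn was detected on 1 brain array, at 4.71, and on 1 Th2 array, at 5.49, and the Acaca probe on none of 18, with levels of 4.14 to 4.29. A probe below detection says nothing of the gene itself.

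Several probes were available for 4 genes. The 4 Elovl1 probes were detected on every array and ranked brain lowest and the Th1 and Th2 groups highest, with brain minus immune differences of -2.34, -2.09, -2.29 and -1.90. The other Elovl6 probe was detected in brain alone (4.97, 5.21 and 5.28), although the brighter one was detected everywhere. For Fads2, the dimmer probe was detected on 3 brain, 3 Th1 and 1 Th2 arrays, and its Th1 level was at least 1.78-fold that of naive cells.

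**Figure D2:**
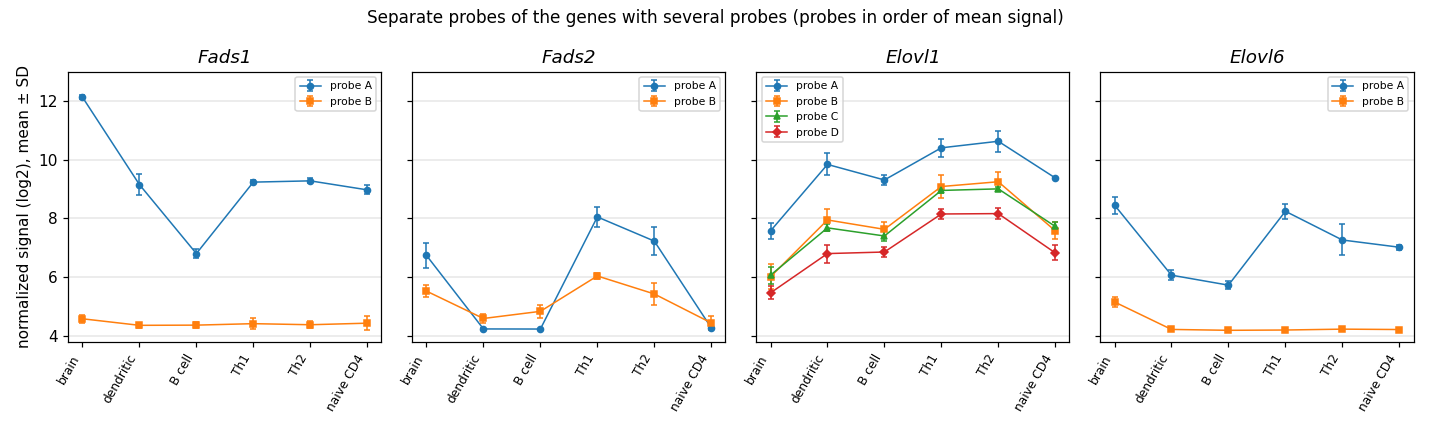
Mean normalized signal (log2) with SD for each probe of Fads1, Fads2, Elovl1 and Elovl6 in the 6 groups, 3 arrays each. The 4 Elovl1 probes run in parallel, while the dimmer Fads1 and Elovl6 probes stay near the bottom of the scale in immune cells.

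Differences between groups are given as the mean log2 level of the group named first minus that of the other, with the standard error of a linear model over all 18 arrays. A gene counted as called at a Benjamini-Hochberg adjusted p under 0.05 (limma) together with a difference of at least 1 log2 unit. Where a probe was undetected on every array of a group, the fold is a lower bound, set from the dimmest detected signal on each of those arrays. These bounds hold for the main normalization only, and fitted differences under other settings can imply smaller folds. The 4 comparisons with naive CD4 T cells use the same 3 naive arrays, so their values stand side by side and are not independent of each other. For the members, each count is a description beside the share of all 12094 tested genes called. The share of all genes whose groups do not overlap was not counted, so non-overlap is a description only. Some members that were not called did not overlap either, such as Fads1 in Th1 and Acly in B against naive cells.

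In B cells, Scd1 stood at least 107-fold above naive CD4 T cells, a fitted difference of 7.46 ± 0.19 (SE). Fads1 was lower by 2.17 ± 0.14 in B cells. Elovl6 differed by -1.29 ± 0.21 and Elovl5 by -1.23 ± 0.16, and the groups did not overlap for any of these 4. Scd2 differed by 0.60 ± 0.24, Acly by -0.24 and Elovl1 by -0.07, none called. In all, 4 of 8 members were called, 1 higher and 3 lower, where 14.2% of all genes were called, 7.3% higher and 6.92% lower. The Elovl6 call was lost without background subtraction (-0.98), with an offset of 50 (-0.91), with the mean of its probes (-0.66) and under median scaling of arrays (-0.83). The Elovl5 call was lost with the authors' scaled signal (-0.97) and under median scaling (-0.39), where Scd2 was called instead (1.06). Median scaling moved the median of all genes to 0.33, against -0.03. Of all called genes, 51.3% were higher in B cells, and 84.2% under median scaling. Of the 7 adipocyte markers, 6 had a probe, and none of these was detected on a B cell array. Plin1, Fabp4, Cidec and Retn were detected on no array of any group, so their absence in B cells says little. The T cell markers summed to 441 to 943 in B cells, against 36800 to 38100 in naive cells.

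Dendritic cells were set against the same naive arrays. Scd1 was at least 12.3-fold higher in dendritic cells, a difference of 4.33 ± 0.19, and was the 1 member called, where 23% of all genes were called, 13.2% higher and 9.83% lower. Elovl6 differed by -0.95, Acly and Elovl5 by -0.66 each, Elovl1 by 0.46, Scd2 by 0.27 and Fads1 by 0.18. Elovl6 was called when the first dendritic cell array (-1.04) or the third naive array (-1.0) was left out. Of all called genes, 57.3% were higher, and 75.5% under median scaling. The first dendritic array, which had the highest Scd1 level of the 3, also had the highest B cell marker sum, 3810 against 2200 and 1880 on the other two, where B cell arrays had 17600 to 18700. Without that array the Scd1 difference was 4.1. Adipoq, an adipocyte marker, was detected on 1 dendritic cell array. The part of B cells, T cells, granulocytes, erythroid cells or adipocytes in the Scd1 signal of these samples was not tested.

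Set directly against B cells, the dendritic cell samples had less Scd1 and more Fads1. Scd1 differed by -3.13 ± 0.19 and Fads1 by 2.35 ± 0.14, with no overlap for either. These were the 2 members called, where 14.7% of all genes were called, 10.2% higher and 4.53% lower in dendritic cells. Under median scaling the share of called genes that were higher was 42.6%, against 69.3%. The other measured members differed by -0.42 to 0.56, apart from Fads2, which was detected in neither group. The dendritic cell samples also held granulocyte, B, T and erythroid markers, and the part of such cells in these differences was not tested.

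Th1 cells had more of 5 members than naive CD4 T cells and less of 1. Fads2 was at least 7.18-fold higher in Th1 cells and Scd1 at least 7.94-fold. Scd2 differed by 2.10 ± 0.24, Elovl6 by 1.23 ± 0.21 and Elovl1 by 1.03 ± 0.21, and Elovl5 by -1.25 ± 0.16. None of these 6 overlapped. Acly, at 0.35, and Fads1, at 0.26, were not called. The 6 of 8 called compare with 28.4% of all genes, where 13% were higher and 15.4% lower. Elovl1 was not called without background subtraction or with an offset of 50, nor without the third Th1 array (0.85). For Elovl6 the call was lost under both scaling alternatives (0.99 and 0.80) and with the mean of its probes (0.61). The higher share of called genes was 45.9%, and 35.2% with the authors' scaled signal.

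In Th2 cells, Fads2 was at least 4.06-fold and Scd1 at least 1.57-fold higher than in naive CD4 T cells. Elovl1 differed by 1.25 ± 0.21, Scd2 by 1.17 ± 0.24 and Elovl5 by -2.14 ± 0.16, again without overlap. Elovl6 differed by 0.25, Fads1 by 0.30 and Acly by 0.14, none called. That made 5 of 8, 4 higher and 1 lower, where 27% of all genes were called, 12.6% higher and 14.4% lower. The calls of Scd1 and Scd2 were both lost without background subtraction (0.85 and 0.80), with an offset of 50 (0.71 and 0.73), when arrays were scaled to a common median (0.63 and 0.67) and in the scaled signal of the authors (0.54 and 0.56). The higher share of called genes was 46.7%, and 27.3% under median scaling. Cell cycle markers summed to 2780 to 3440 in dendritic, 1250 to 1540 in B, 3090 to 3350 in Th1 and 3800 to 4140 in Th2 cells, against 654 to 869 in naive CD4 T cells, and their part in the differences from naive cells was not tested.

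Between Th1 and Th2 cells, Scd1 was the 1 member called, higher in Th1 cells by 2.33 ± 0.19. Elovl6 differed by 0.98, Scd2 by 0.93, Elovl5 by 0.89 and Fads2 by 0.82, short of the threshold of 1, while Acly (0.21), Elovl1 (-0.22) and Fads1 (-0.04) lay nearer 0. Of all genes, 4.5% were called, 2.18% higher and 2.32% lower in Th1 cells. Under median scaling 5 members were called, the 4 just below the threshold among them, and the higher share of called genes was 70.3%, against 48.5%. Leaving out an array called 2 members without the second Th1 or Th2 array, 3 without the first Th1 array and 4 without the third Th2 array.

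**Figure D3:**
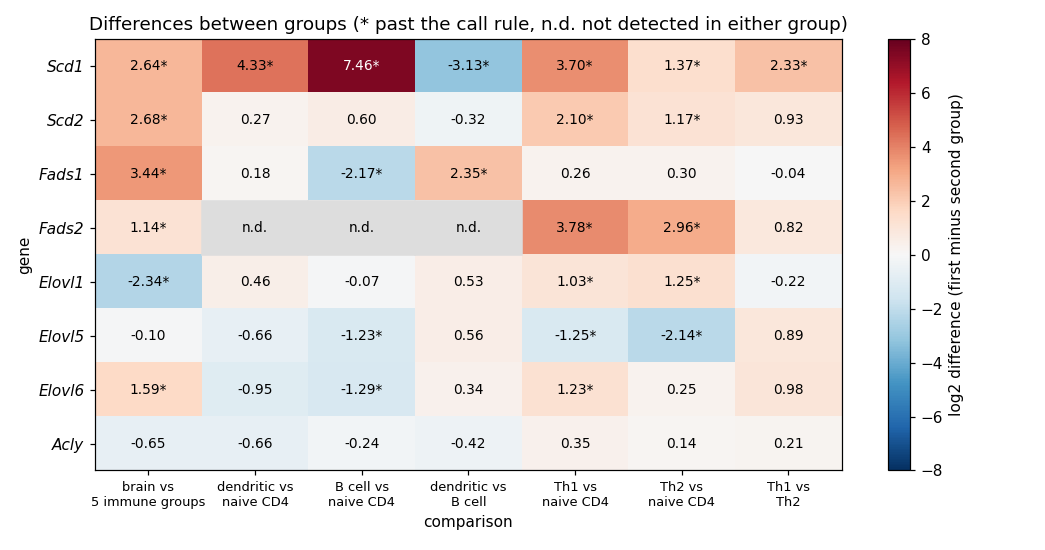
Log2 difference (colour and printed value, first group minus the other) of the 8 measured genes in the 7 comparisons, with an asterisk where the call rule was met and n.d. where neither group was detected. Values against a group below detection are fitted differences, not bounds. Scd1 is marked in every column, from -3.13 for dendritic against B cells to 7.46 for B cells against naive CD4 T cells.

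Brain was compared with the mean of the 5 immune groups. Fads1 was higher in brain by 3.44 ± 0.11, Scd2 by 2.68 ± 0.19 and Elovl6 by 1.59 ± 0.17, whereas Elovl1 was lower by 2.34 ± 0.16. Scd1 was undetected in 1 immune group and Fads2 in 3, so their fitted differences of 2.64 ± 0.15 and 1.14 ± 0.18 rest partly on undetected signal. With undetected arrays set at their dimmest detected signal, brain was at least 5.64-fold higher for Scd1 and at least 1.53-fold higher for Fads2. No immune array overlapped brain for Fads1, Scd2 or Elovl1. All 3 B cell arrays exceeded brain for Scd1, and Th1 arrays overlapped brain for Elovl6 and exceeded it for Fads2, where Th2 arrays overlapped it. Acly differed by -0.65 and Elovl5 by -0.10. The 6 of 8 members called stand beside 52.3% of all genes, 25.7% higher and 26.6% lower. The Fads2 call was lost without the third brain array (0.90), without background subtraction (0.75), with an offset of 50 (0.56) and with the mean of both probes (0.80). Of all called genes, 49.2% were higher in brain, 64.3% in the scaled signal of the authors and 69.6% under median scaling. The last moved the median of all genes to 0.47, against -0.15. All 6 measured oligodendrocyte markers were detected on the 3 brain arrays, with sums of 20400 to 31700 against 182 to 1110 in immune cells. So were all 4 astrocyte markers (20800 to 22800 against 107 to 584), all 3 measured neuron markers (22400 to 23200 against 55.8 to 67.4) and both measured erythroid markers (13200 to 19000 against 38.6 to 9430). Markers detected in brain alone passed the filter only through brain, so their detection there was fixed in advance. The part of oligodendrocytes, astrocytes, neurons or erythroid cells in the brain levels was not tested.

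The start regions of 7 of the 10 genes were available from RefSeq (build GRCm38.p6), as 8 windows of 300 bases from 250 before to 50 after the start. They are shown for Fads2, Elovl6 and Elovl1, which were higher in Th1 cells, and for Elovl5, which was lower. Elovl1 had another window, at chr4:118429451-118429750, which is not shown and held 2 Sp1 boxes and no NF-Y box. Capitals mark matches, on either strand, to the SREBP element TCACNCCAC, the NF-Y box CCAAT, the E-box CACGTG or the Sp1 box GGGCGG. The positions are chr19:10101454-10101753 on the minus strand for Fads2, and on the plus strand chr3:129532136-129532435 for Elovl6, chr4:118427843-118428142 for Elovl1 and chr9:77917115-77917414 for Elovl5.
Fads2: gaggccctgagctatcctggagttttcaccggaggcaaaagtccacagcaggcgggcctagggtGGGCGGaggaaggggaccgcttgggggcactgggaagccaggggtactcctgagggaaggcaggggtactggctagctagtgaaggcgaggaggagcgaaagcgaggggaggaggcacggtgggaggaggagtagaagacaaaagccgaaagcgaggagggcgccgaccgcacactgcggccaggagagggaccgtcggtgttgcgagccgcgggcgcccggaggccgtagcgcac
Elovl6: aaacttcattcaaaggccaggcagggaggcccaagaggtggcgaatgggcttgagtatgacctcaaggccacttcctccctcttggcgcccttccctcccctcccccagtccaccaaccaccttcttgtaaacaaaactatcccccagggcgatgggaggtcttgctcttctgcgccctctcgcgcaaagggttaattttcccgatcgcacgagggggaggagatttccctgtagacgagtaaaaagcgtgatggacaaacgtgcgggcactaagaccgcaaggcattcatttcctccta
Elovl1: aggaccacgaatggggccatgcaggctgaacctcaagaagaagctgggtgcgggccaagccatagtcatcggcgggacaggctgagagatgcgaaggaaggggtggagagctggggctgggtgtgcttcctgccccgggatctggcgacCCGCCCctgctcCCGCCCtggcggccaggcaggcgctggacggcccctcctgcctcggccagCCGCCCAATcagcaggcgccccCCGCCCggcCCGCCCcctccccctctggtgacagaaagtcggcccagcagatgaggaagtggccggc
Elovl5: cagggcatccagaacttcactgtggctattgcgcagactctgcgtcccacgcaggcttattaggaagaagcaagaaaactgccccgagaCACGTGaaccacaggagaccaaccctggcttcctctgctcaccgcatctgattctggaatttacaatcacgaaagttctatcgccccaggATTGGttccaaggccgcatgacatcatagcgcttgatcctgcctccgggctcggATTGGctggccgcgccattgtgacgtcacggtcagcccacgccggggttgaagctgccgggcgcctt
An Sp1 box and the NF-Y box overlap in the Elovl1 window shown. Of the 8 windows, 4 held an NF-Y box, 4 an Sp1 box and 1 an E-box, where 37.4%, 35.7% and 7.15% of 32851 promoters of that length did. The SREBP element was in 0 of 8 windows and in 1.24% of all promoters, which says only that these letters are not in these windows.

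Other genes of lipid metabolism were read from 5 lists in the same fit. The lists were chosen with earlier results of these data known, and the genes named are mostly those with the largest changes. Their adjusted p-values are therefore a description from the fit over all genes, not independent tests. Against naive CD4 T cells, 21 of their 52 measured genes passed in Th1 cells, or 40.4%, where 28.4% of all genes were called (13% higher and 15.4% lower). In Th2 cells 17 passed, or 32.7%, where 27% of all genes were called (12.6% higher and 14.4% lower). Of 12 measured regulators of lipogenesis, 4 rose and 2 fell in Th1 cells, and 3 rose and 1 fell in Th2 cells. Insig1, which holds SREBP precursors in the endoplasmic reticulum and is itself an SREBP target, averaged 9.28 ± 0.28 in Th1 and 9.30 ± 0.19 in Th2 cells, against 6.18 ± 0.52 in naive cells (differences of 3.09 and 3.11, limma adjusted p = 5.88e-08 and 6.17e-08). Mid1ip1, which promotes acetyl-CoA carboxylase polymerisation, rose by 2.71 in Th1 (limma adjusted p = 6.71e-09) and 2.15 in Th2 cells (1.22e-07). Pparg, a nuclear receptor that drives adipogenesis, lay below detection on the naive arrays. It was at least 1.87-fold higher in Th1 (limma adjusted p = 3.27e-06) and at least 9.27-fold higher in Th2 cells (1.06e-10). It was lower in Th1 than in Th2 cells by 2.31 (7.93e-07). Insig2 did not pass, at 0.26 in Th1 (limma adjusted p = 0.301) and -0.28 in Th2 cells (0.255). Srebf1, which encodes the SREBP form best known for fatty acid synthesis, was detected on 2 Th1, 1 Th2 and 3 naive arrays and did not pass in either subset. Srebf2, of the same list, was detected on all Th1, Th2 and naive arrays. It was higher by 0.87 in Th1 (limma adjusted p = 0.00358) and 0.60 in Th2 cells (0.0338). Both differences were short of the threshold of 1 log2 unit, so Srebf2 did not pass.

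Of 6 measured genes that supply acetyl-CoA and NADPH, 1 rose and 2 fell in both helper subsets. Slc25a1, the mitochondrial citrate carrier upstream of Acly, rose by 1.89 in Th1 (limma adjusted p = 1.79e-08) and 1.25 in Th2 cells (2.61e-06). Acss2, which makes acetyl-CoA from acetate, averaged 6.37 ± 0.61 in Th1 and 5.61 ± 0.31 in Th2 cells, against 10.18 ± 0.09 in naive cells. It fell by 3.81 in Th1 and by 4.57 in Th2 cells on the log2 scale (limma adjusted p = 3.77e-10 and 4.69e-11). Idh1, a source of cytosolic NADPH, fell by 1.01 (limma adjusted p = 0.000751) and 1.30 (7.35e-05). It was detected on 2 of 3 Th1 and 1 of 3 Th2 arrays, so these falls rest partly on undetected signal. Acss2 was detected on 2 of 3 Th2 arrays. Citrate synthase, Cs, did not pass, at 0.11 and -0.25.

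Among 12 other measured elongation and desaturation enzymes, 2 rose in each subset. These were Hacd1, a dehydratase of the elongation cycle that was undetected in naive cells, at least 5.89-fold higher in Th1 (limma adjusted p = 3.58e-11) and 7.22-fold in Th2 cells (1.34e-11), and Hsd17b12, the reductase of that cycle, by 1.95 (2.64e-05) and 1.64 (0.000157). Tecr, its last reductase, did not pass, at -0.31 and -0.60. Of 11 genes for fatty acid activation, binding and esterification, 4 rose in Th1 cells, while 2 rose and 1 fell in Th2 cells. Acsl6, an acyl-CoA synthetase known from brain, lay below detection on the naive arrays, with levels at least 7.19-fold higher in Th1 (limma adjusted p = 9.75e-14) and 1.75-fold higher in Th2 cells (1.01e-09). Dgat1, which completes triglyceride synthesis, rose by 1.78 in Th1 cells (3.15e-08) and was higher there than in Th2 cells by 1.57 (1.67e-06).

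Mitochondrial fatty acid oxidation had 11 measured genes, of which 1 rose and 5 fell in Th1 cells and 1 rose and 4 fell in Th2 cells, where 15.4% of all genes were lower in Th1 and 14.4% in Th2 cells. Acadl, a long-chain acyl-CoA dehydrogenase, rose by 2.73 in Th1 (limma adjusted p = 2.06e-07) and 1.06 in Th2 cells (0.00321). Hadhb, a subunit of the trifunctional protein, fell by 1.90 in each (2.74e-08 and 3.03e-08), and Acadm, the medium-chain dehydrogenase, fell by 1.59 (5.81e-10) and 1.98 (4.34e-11). The median difference over the measured list was -0.63 in Th1 and -0.64 in Th2 cells, where that of all genes was -0.02 and -0.01.

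**Figure D4:**
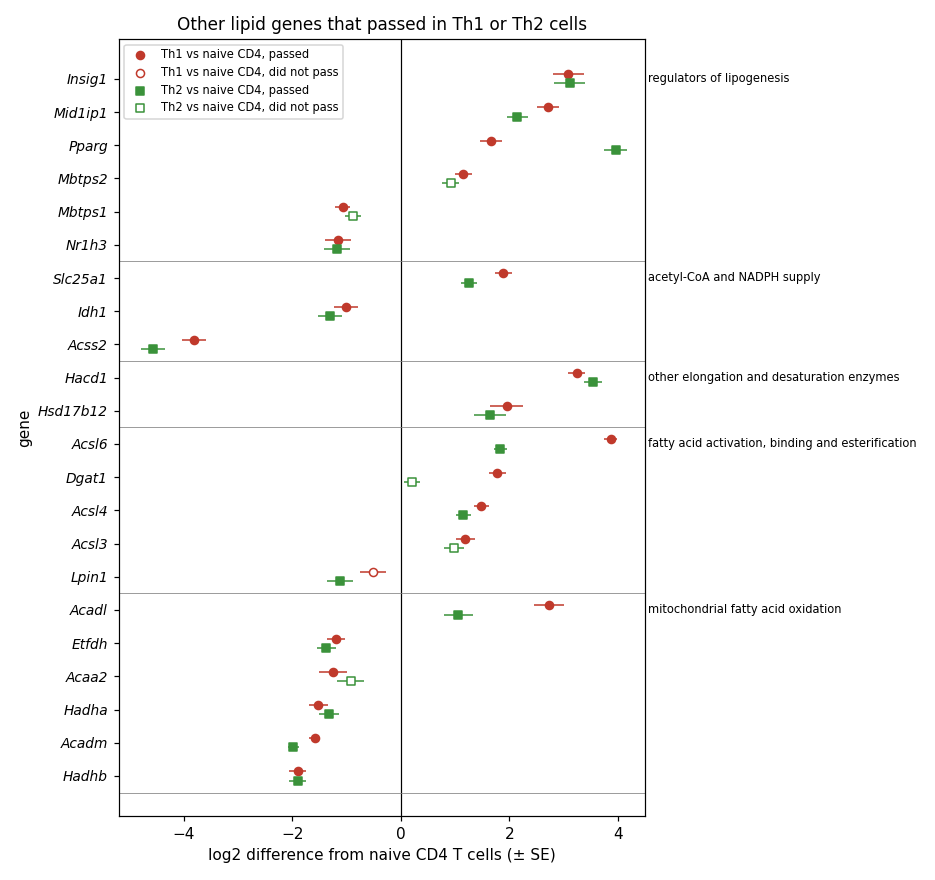
Log2 difference from naive CD4 T cells (horizontal axis, bars are SE, fitted and not a bound for genes undetected in a group) of the 22 genes of the 5 lipid gene lists that passed in Th1 or Th2 cells, filled where the gene passed and open where it did not. Insig1, Mid1ip1, Pparg, Hacd1 and Acsl6 lie to the right and Acss2 farthest to the left in both subsets.

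In B cells, 8 of the 52 measured genes of these lists passed against naive CD4 T cells, or 15.4%, where 14.2% of all genes were called. Of the regulators 1 rose and 1 fell, and Mid1ip1 rose by 1.32 (limma adjusted p = 5.93e-05). Acss2 fell by 2.88 (limma adjusted p = 2.09e-08), the 1 supply gene of 6 to pass. Fads6, listed with the desaturases, was undetected in B cells and at least 2.63-fold lower there (3.68e-08), and Hacd3, another elongation dehydratase, fell by 1.11 (2.77e-06). Against naive CD4 T cells, 11 of the 52 passed in dendritic cells, or 21.2%, where 23% of all genes were called. The 4 of 12 regulators that passed included Pparg, at least 5.02-fold higher (limma adjusted p = 1.97e-09), and Nr1h3, an oxysterol receptor, higher by 1.40 (9.73e-05). Dgat2, the other enzyme that completes triglycerides, was at least 4.11-fold higher in dendritic cells (limma adjusted p = 1.23e-07). Because granulocyte, B, T and erythroid markers were also detected in these samples, the values are not of dendritic cells alone. The part of such cells in them was not tested.

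In brain, 29 of the 52 genes passed against the immune mean, or 55.8%, with 21 higher and 8 lower, where 52.3% of all genes were called, 25.7% higher and 26.6% lower. Some of the higher genes, such as Me1, Thrsp, Hacd2, Fads3 and Fabp3, were detected on brain arrays alone. They passed the filter on dim signals only through brain, as did Elovl4, so their direction was fixed in advance and they add no support. Of the 12 other elongation and desaturation enzymes, 7 rose, a count that includes Elovl4, Fads3 and Hacd2. Elovl4, the elongase of very long chains, averaged 9.05 in brain and was below detection on every dendritic, B and naive CD4 T cell array, so that brain was at least 14-fold higher. Fads6, undetected in B cells, was at least 6.73-fold higher (limma adjusted p = 1.53e-12), and Fads3 was at least 2.02-fold higher. Of the 11 activation and binding genes, 6 rose and 2 fell. Fabp3, a fatty acid binding protein, was at least 22.6-fold higher. Acsl6, undetected in 3 immune groups, was at least 25.6-fold higher (limma adjusted p = 2.44e-18). Among the regulators, 2 rose and 3 fell, and Srebf2 and Scap, the sterol-regulated factor and its escort protein, fell by 2.09 (6.8e-09) and 1.74 (2.21e-08).

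Over the 6 group means, each centred on its own mean, the member profiles most alike were those of Scd2 and Elovl6, with a root mean square difference of 0.69 log2 units. Outside the list, 12086 genes were compared with Scd1 in the same way. Its nearest profiles were Pkig (0.83), Tcf4 (0.86) and Sdc4 (1.13). For Scd2 they were Ubtd2 (0.27), Sstr2 (0.31) and Lingo1 (0.33). These distances are descriptions over 6 points.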

How the data were processed

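Total RNA was labelled as biotinylated cRNA, per the labels' protocols; GenomeStudio is named in the submitters' processing notes, and no version is given. Intensity values were deposited as linear bead signals without background subtraction, each with a detection p-value, per the file headers and the values. The authors' scaled intensity values were used as an alternative.

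Signals were background-corrected with limma 3.58.1 (R 4.3.3) by neqc, which takes the background from the detection p-values, adds an offset of 16, quantile-normalizes and takes log2. Probes were named from the platform annotation: 34885 of 45281 had 1 symbol. The brightest detected probe stood for each of 12094 genes. A model with 6 group means was fitted over 18 arrays (lmFit, eBayes), two-sided. The code of the fit was run on simulated data with independent noise, for Th1 against naive CD4 T cells only. These data held no background step, probe choice or pairing of arrays, so they say nothing of those. The offset understates folds of dim genes. Tables were made with pandas 2.3.3 in Python 3.11.15, and plots with matplotlib 3.10.9.

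Members, gene lists and markers were chosen with earlier results of these data known. Named list genes are at most the 3 passing genes with the largest change per list and comparison and 1 other with the highest level. Exceptions are Srebf1, and Srebf2 in Th1 and Th2 cells, which were added after their values were seen. Replicate numbers in the titles paired Th1 with Th2 arrays (deviations correlated at 0.592, 0.316 and 0.675) and no other groups. Probe sequences were not used here, so cross-hybridisation between Scd1 and Scd2 was not checked. The number of arrays limits the precision.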

Additional observations from a re-analysis of the deposited data

How the results depend on the processing

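Of 56 member differences, 25 were called, none of these changed sign under any alternative, and 18 were called in every setting, Scd1 in B, dendritic and Th1 cells against naive CD4 T cells among them. Over all settings the fitted Scd1 difference from naive cells ran over 3.11 to 4.48 in dendritic, 6.15 to 7.93 in B and 2.26 to 3.76 in Th1 cells, and that of Fads2 over 2.27 to 3.93 in Th1 and 1.57 to 3.18 in Th2 cells. The lowest of these values imply smaller folds than the lower bounds given above. Of the differences not called, 12 changed sign in some setting, such as Acly in B against naive cells (0.57 under median scaling, against -0.24). The number of members called in Th2 against naive cells was 3 without background subtraction, with an offset of 50, when arrays were scaled to a common median and in the scaled signal of the authors, against 5. In Th1 against Th2 cells it was 5 under median scaling, and 2 in the scaled signal of the authors, against 1. Leaving out arrays gave 1 to 4 members in that comparison and 1 to 2 in dendritic against naive cells. Over all genes, B against naive cells had 2631 calls under median scaling, against 1720, and Th1 against Th2 cells had 315 with an offset of 50 and 345 with the authors' scaled signal, against 544. The cause of these shifts was not tested. With the replicate number as a block, which pairs Th1 with Th2 arrays, Scd1 differed by 2.33 between them and 552 genes were called (539 in the fit of those arrays alone), and the block changed no member's call and no other comparison's count by over 1.5 times. Genes dim in a group have bounded folds, and signal over background limits what can be said of Fasn and Acaca.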
